A study of Mus musculus with 32 samples.

Results

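The interferon-inducible GTPases described here are 10 mouse genes. Gbp2, Gbp3, Gbp5, Gbp6 and Gbp7 encode guanylate-binding proteins (GBPs), and Irgm1, Irgm2, Igtp, Iigp1 and Tgtp1 encode immunity-related GTPases (IRGs). A probe was matched by its RefSeq accession for 9 of the 10 genes, out of 45616 names on the array. No probe matched Tgtp1, so it has no value here. Of several probes for a gene, the one brightest on average across the 32 arrays was used.

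Gene expression was measured with one-colour Agilent arrays in mice carrying MCG 101, a transplantable mouse sarcoma. The same tumor cells were implanted in hosts lacking EP2, a receptor for prostaglandin E2 whose gene is Ptger2, and in EP2 wild-type hosts, so the deletion concerns the host cells. Knockout stroma, wild-type stroma, knockout tumor and wild-type tumor were each measured on 8 arrays, 4 labelled female and 4 labelled male. Strain, age, time after implantation and the deleted part of Ptger2 are not given in the sources used here. Array numbers recur in stroma and tumor, but the labels do not say that a shared number means the same mouse or that each array is a separate mouse. The p-values therefore measure the spread between these samples. Since the tissues are mixtures, fewer cells of a type and less RNA per cell cannot be told apart.

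GBPs and IRGs are GTPases that mouse cells make in large amounts when interferon gamma reaches them, and to a lesser degree after type I interferons. GBPs coat pathogen vacuoles and bacteria, promote their rupture and help to activate inflammasomes. Among the IRGs, Irgm1, Irgm2 and Igtp act as regulators on host membranes, where they hold the effector IRGs, among them Iigp1 and Tgtp1, in the inactive state, and the effectors load onto vacuoles and disrupt them. Promoters of interferon-induced genes often carry gamma-activated sites (GAS) and interferon-stimulated response elements (ISRE), and IRF1 is among the factors that bind the ISRE.

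Promoter sequences were searched for 8 of the 10 genes. Those of Gbp6 and Iigp1 were not searched, so whether they hold the motifs is not known here. The window around the ISRE match is shown for each because the motif is what these promoters share. The windows come from the RefSeq promoter table (build GRCm38.p6) and are read 5′ to 3′ on the strand of the gene. Capitals mark matches to the ISRE letters, which are GAAA, any 2 bases and GAAA again, or on the other strand TTTC, any 2 bases and TTTC. Matches overlap in Gbp3 and Irgm1. In Tgtp1, Igtp and Irgm2, capitals also mark a match to the GAS letters TTCNNNGAA, which read the same on both strands.
Gbp5 (chr3:142496739-142496808, plus strand): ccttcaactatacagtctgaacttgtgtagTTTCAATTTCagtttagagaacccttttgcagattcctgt
Gbp7 (chr3:142530253-142530322, plus strand): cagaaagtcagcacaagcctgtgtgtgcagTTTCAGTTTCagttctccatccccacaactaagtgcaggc
Gbp3 (chr3:142559969-142560044, plus strand): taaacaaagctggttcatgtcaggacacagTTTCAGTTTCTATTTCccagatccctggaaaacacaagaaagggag
Gbp2 (chr3:142620574-142620643, plus strand): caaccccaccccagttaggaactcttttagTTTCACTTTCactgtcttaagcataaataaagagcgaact
Irgm1 (chr11:48871405-48871480, minus strand): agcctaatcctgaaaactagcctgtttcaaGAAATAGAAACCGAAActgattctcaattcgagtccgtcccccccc
Tgtp1 (chr11:48992284-48992353, minus strand): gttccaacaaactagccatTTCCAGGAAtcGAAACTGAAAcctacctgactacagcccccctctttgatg
Igtp (chr11:58199492-58199561, plus strand): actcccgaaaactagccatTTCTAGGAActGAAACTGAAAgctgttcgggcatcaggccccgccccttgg
Irgm2 (chr11:58214883-58214952, plus strand): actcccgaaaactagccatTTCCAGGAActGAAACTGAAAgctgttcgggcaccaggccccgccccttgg

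An ISRE match lay within 250 bases before to 50 bases after the annotated start in 8 of the 8 genes searched, against 3.99% of 27025 genes with a promoter in the table. Gbp3 has 2 promoter entries, and the second held no match. By entry, 8 of 9 matched, against 3.44% of all 32851 entries. Counted from the annotated start, the match began at -30 in Irgm1, -34 in Igtp, -64 in Irgm2 and -165 in Gbp5. A GAS match was found in 5 of 8 genes, namely Gbp5, Gbp7, Tgtp1, Igtp and Irgm2, against 9.55% of all genes. The Irgm2 and Igtp promoters, which belong to neighbouring genes on chromosome 11, were identical at 243 of 300 aligned bases (81%). A match describes letters and shows no binding.

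Levels are log2 signals relative to the 75th percentile of the same array, and levels of different probes are not comparable. All 9 genes were well above background on 32 of 32 arrays, and no spot was saturated. Between 49.99% and 76.3% of spots were well above background per array, and the number of arrays limits the precision. The 76.3% belonged to wild-type tumor 5, and the next highest share was 64.1%, on wild-type stroma 1. That tumor array held 483 outlier spots, and the next highest number was 175, on knockout tumor 15. Its mean of the 9 genes, -0.49, was the lowest of the 32 arrays. The Ptger2 probe averaged -3.17 ± 0.49 in knockout stroma, against -4.02 ± 0.96 in that of wild-type hosts, and -3.91 ± 0.77 in knockout tumor, against -4.97 ± 0.93 in wild-type tumor (8 arrays each, SD). Its place relative to the deletion is not known, so it checks no genotype label. On the first principal component (58.8% of the variance), the arrays labelled wild-type stroma 65 and 82 scored 68.5 and 113. These scores fall in the range of the tumors (30.8 to 161), and all other stroma scores were -228 to -21.9. Ddx3y and Xist signals went against the sex label on 5 arrays: knockout stroma 95 and 99, wild-type stroma 9, and knockout tumor 95 and 99. None of 496 array pairs held identical values.

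The first comparison asked how the GTPases of the stroma differed with the EP2 genotype of the host. All 9 were higher on average in knockout than in wild-type stroma, by a median log2 difference of 1.06, against 0.08 over all 24782 genes tested. None passed the test at an adjusted p under 0.05 (limma with Benjamini-Hochberg adjustment), and the percentage of all genes called was 0. At an unadjusted p under 0.05, 6 of the 9 were higher, against 11.9% of all genes higher and 28.2% in either direction. Of all genes tested, 54.5% were higher in knockout stroma. Without wild-type stroma 65 and 82, which scored among the tumors on the first principal component, the 28.2% fell to 7.58%. The count of the 9 at that unadjusted p is not given for this fit.

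Irgm2, a regulatory IRG found on Golgi membranes, differed most. Its log2 level was 4.12, 5.51, 5.59, 5.64, 5.46, 4.30, 5.07 and 4.38 in knockout stroma 12, 15, 49, 51, 59B, 81, 95 and 99. In wild-type stroma 1, 4, 45, 5, 65, 68, 82 and 9 it was 3.49, 3.53, 3.70, 3.86, 1.73, 4.29, 2.65 and 3.83. Every knockout array lay above the wild-type median, and the groups overlapped only where knockout stroma 12 fell below wild-type stroma 68. The log2 difference was 1.62 ± 0.33 (SE), or 3.08-fold, with an adjusted p of 0.120 and rank 27 of 24782 by p. Without wild-type stroma 65 and 82, the difference was 1.25 (adjusted p = 0.643).

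The other regulators followed with smaller differences. Irgm1 ran from 3.11 to 3.99 with a median of 3.47 in knockout stroma, against 1.51 to 3.48 with a median of 2.72 in wild-type stroma. The Irgm1 difference was 0.79 ± 0.23 (SE, adjusted p = 0.120), and its 3 probes gave 0.79, 0.81 and 0.83. Igtp, a regulatory IRG of the endoplasmic reticulum and lipid droplets, ran from 3.47 to 5.41 (median 4.18) in knockout stroma, against 2.31 to 4.52 (median 3.33) in wild-type stroma. For both genes 8 of 8 knockout arrays were above the wild-type median, while the groups overlapped. The Igtp difference was 1.06 ± 0.35 (SE, adjusted p = 0.120).

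The effector Iigp1 had levels of 3.19 to 5.04 (median 3.99) in knockout stroma, against 0.65 to 4.32 (median 2.68) in wild-type stroma. The lowest wild-type values belonged to arrays 9 and 1, at 0.65 and 1.497, and 8 of 8 knockout arrays exceeded the wild-type median. The log2 difference was 1.45 ± 0.48 (SE, adjusted p = 0.122). The probe of Tgtp2, a near-identical copy of Tgtp1, averaged 4.56 ± 0.73 in knockout stroma, against 3.69 ± 1.14 in that of wild-type hosts (8 arrays each, SD). Its difference was 0.87 ± 0.43 (SE, adjusted p = 0.191), and its signal may hold RNA of both copies.

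Among the GBPs, Gbp6 and Gbp5 differed more than the rest. Gbp6 ran from -0.996 to 1.15 (median 0.61) in knockout stroma, against -2.87 to 0.67 (median -0.78) in wild-type stroma. Gbp5, a GBP tied to inflammasome assembly, ran from 0.09 to 1.90 (median 1.01) in knockout stroma, against -1.78 to 1.77 (median -0.32) in wild-type stroma. In both genes the wild-type arrays spread more widely than the knockout arrays, and 7 of 8 knockout arrays for Gbp6 and 8 of 8 for Gbp5 were above the wild-type median. The differences were 1.47 ± 0.51 for Gbp6 (SE, adjusted p = 0.123) and 1.26 ± 0.47 for Gbp5 (SE, adjusted p = 0.129). Gbp3 differed by 0.79 ± 0.49 (SE, adjusted p = 0.279) and Gbp7 by 0.76 ± 0.40 (SE, adjusted p = 0.218), each with 5 of 8 knockout arrays above the wild-type median. The Gbp3 difference was 0.46 without wild-type stroma 1 and 0.20 without wild-type stroma 1 and 9 (adjusted p = 0.681). Without that pair Gbp5 differed by 0.77, Gbp6 by 0.91 and Gbp7 by 0.37.

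Gbp2 showed the smallest difference. It ran from 1.62 to 3.65 (median 2.76) in knockout stroma, against 0.57 to 4.09 (median 2.68) in wild-type stroma, so the wild-type range enclosed the knockout range. The log2 difference was 0.41 ± 0.51 (SE, adjusted p = 0.579, 5 of 8 arrays), and it turned to -0.16 without wild-type stroma 1 and 9.

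**Figure D1:**
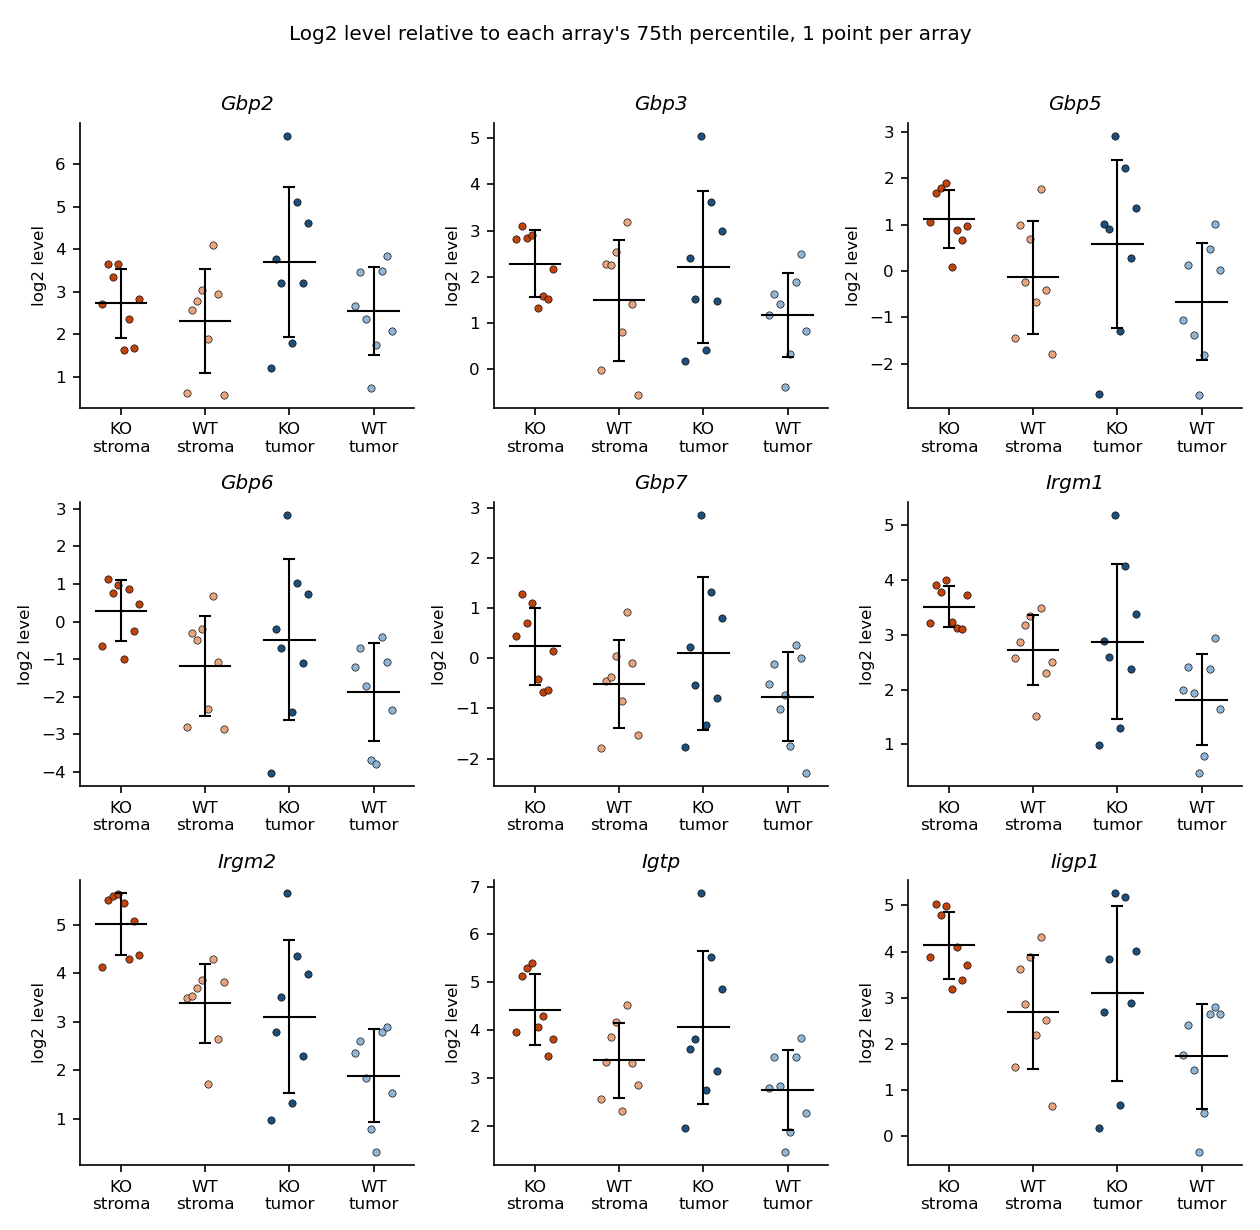
Log2 level of 9 interferon-inducible GTPases on each array, relative to the array's 75th percentile, in knockout stroma, wild-type stroma, knockout tumor and wild-type tumor (8 points each, line and bar: mean ± SD). Irgm2 is the gene whose stroma groups overlap least, and knockout tumor spreads most widely for every gene.

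The arrays of wild-type stroma with the lowest GTPase means, 1 and 9, differed from the others in T cell and NK markers. The mean of the 9 genes was 0.52 in wild-type stroma 1 and 0.41 in wild-type stroma 9, the lowest of the 16 stroma arrays. The mean of 9 T cell markers was -3.25 and -3.76 on these arrays and -1.63 to 0.63 on the other 14, and that of 8 NK and cytotoxic genes was -4.24 and -5.28 against -2.70 to -0.30. Wild-type stroma 65 was among those 14, with the next lowest GTPase mean, 0.73. Its mean of the 4 IRGs, 1.94, was the lowest in stroma, and its first principal component score fell in the range of the tumors. Of 10 macrophage markers all were higher in knockout stroma (median 0.96, none called), with means of 2.32 to 4.48 in knockout and 0.33 to 3.47 in wild-type stroma. All 11 cell cycle genes were lower in knockout stroma (median -1.45, none called), with means of -0.90 to 2.46 in knockout and -3.43 to 3.85 in wild-type stroma. All 10 skeletal muscle and all 8 adipocyte markers were higher (medians 1.59 and 1.70, none called). Their means ran from 6.74 to 8.68 and from 0.15 to 3.46 in knockout stroma, and from 1.46 to 9.25 and from -2.95 to 2.58 in wild-type stroma. All 5 B cell markers were higher (median 1.29, 4 of 5 at an unadjusted p under 0.05, none called), with means of -2.42 to -0.65 in knockout and -4.19 to -1.84 in wild-type stroma. All 8 endothelial markers were higher (median 0.61, 4 of 8 at an unadjusted p under 0.05, none called), with means of 0.999 to 1.85 in knockout and -0.04 to 1.95 in wild-type stroma. At that unadjusted p were 28.2% of all genes, and 11.9% were higher. So were 4 of 10 skeletal muscle, 0 of 8 adipocyte, 2 of 10 macrophage and 3 of 11 cell cycle genes. Among T cell markers it was 0 of 9, and among NK and cytotoxic genes 0 of 8. The part of these markers in the GTPase difference was not tested. Without wild-type stroma 1 and 9, the median of the 9 genes was 0.77, and Irgm2 was higher by 1.71 (adjusted p = 0.0053) and called, as was Irgm1 (0.73, adjusted p = 0.0336). These were 2 of 9 members, where 36.1% of all genes were called. Leaving out wild-type stroma 4 alone gave 6 called members of 9, with 21.0% of all genes called. Leaving out wild-type stroma 9 alone gave 3 of 9, with 33.9% of all genes called. Leaving out any other stroma array gave 0.

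Within the 5 slides that held both genotypes of stroma, the median of the 9 genes was higher in the knockout on each. It was 2.57 on slide 2, 0.38 on slide 3, 2.13 on slide 4, 1.93 on slide 5 and 0.37 on slide 6, and 9, 8, 9, 9 and 5 of the 9 genes were higher. Slide 2 set knockout stroma 51 against wild-type stroma 65 alone. On slides 4 and 5 the only wild-type arrays were 9 and 1. The GTPase means of wild-type stroma 65, 9 and 1 were 0.73, 0.41 and 0.52, the lowest of their group. Slide 3 also held 1 wild-type array, 5, with a mean of 2.37. Slide 1 held wild-type stroma 68 and 4 and no knockout stroma, so these arrays entered no within-slide difference. Their GTPase means were 3.03 and 2.05, and that of 68 was the highest of the wild-type stroma. The mix of sex labels differed between the genotypes on all 5 slides. With slide as a fixed block, the median was 1.37 and none was called.

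**Figure D2:**
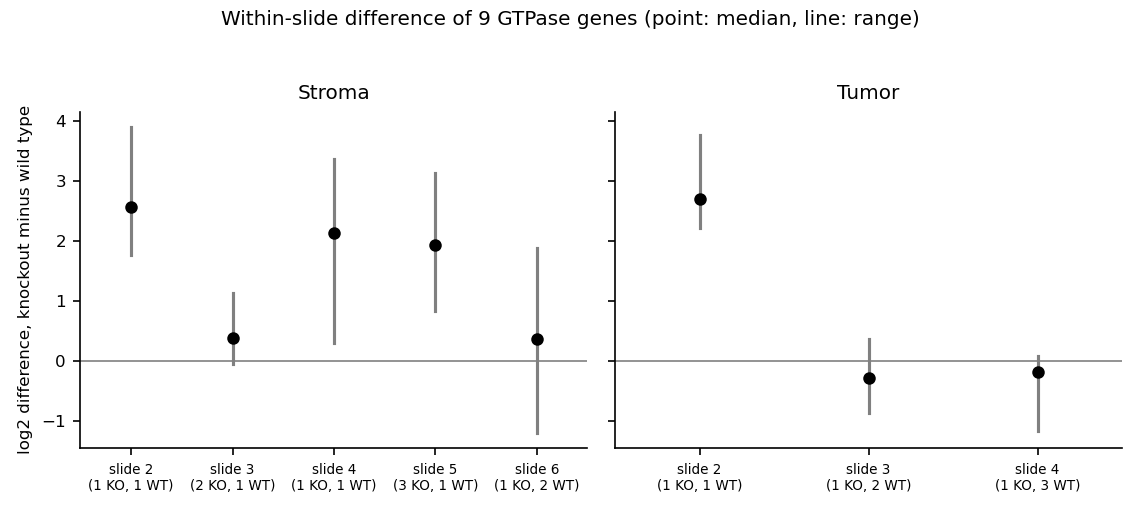
Knockout minus wild-type log2 difference of 9 GTPase genes within each slide that held both genotypes, for stroma and tumor (point: median over the genes, line: lowest to highest). The stroma medians are 0.37 to 2.57, and the tumor medians are 2.70, -0.28 and -0.18.

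The same question was asked of the tumor. All 9 genes were again higher on average in knockout than in wild-type tumor, by 0.87 to 1.39, with a median of 1.22 against 0.004 over all 23749 genes tested, of which 50.7% were higher. None passed the test, the percentage of all genes called was 0, and none of the 9 reached an unadjusted p under 0.05, against 3.33% of all genes. The stroma and tumor comparisons share no arrays.

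The highest tumor levels came from a few knockout arrays. Igtp was at 1.95, 3.61, 3.82, 6.86, 2.75, 5.52, 3.16 and 4.85 in knockout tumors T12, T149, T15, T51, T59B, T81, T95 and T99. In wild-type tumors T1, T4, T45, T5, T65, T68, T82 and T9 it was at 2.80, 3.45, 2.82, 1.45, 1.87, 3.45, 3.84 and 2.27. Knockout tumor 51, 81 and 99 stood above every wild-type tumor, while knockout tumor 12 and 59B lay below the wild-type median. The log2 difference was 1.32 ± 0.62 (SE, adjusted p = 0.977, 6 of 8 arrays), the smallest unadjusted p of the 9 at 0.0518.

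Irgm2 ran from 0.97 to 5.65 (median 3.15) in knockout tumor, against 0.32 to 2.89 (median 2.10) in wild-type tumor. Iigp1 ran from 0.18 to 5.27 (median 3.36) in knockout tumor, against -0.35 to 2.80 (median 2.08) in wild-type tumor. Both knockout ranges extended well above the wild-type range and their lower ends overlapped it. The differences were 1.22 ± 0.63 for Irgm2 and 1.36 ± 0.69 for Iigp1 (SE, adjusted p = 0.977 each). Irgm1 differed by 1.05 ± 0.56 (SE, adjusted p = 0.977).

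The GBPs of the tumor were highest on the same array. Gbp2 ran from 1.20 to 6.67 (median 3.48) in knockout tumor, against 0.74 to 3.84 (median 2.51) in wild-type tumor. Gbp6 ran from -4.04 to 2.85 (median -0.45) in knockout tumor, against -3.81 to -0.42 (median -1.47) in wild-type tumor. For both, knockout tumor 51 was highest and knockout tumor 12 lowest among the knockout arrays. Gbp2 differed by 1.15 ± 0.70 and Gbp6 by 1.39 ± 0.85 (SE, adjusted p = 0.977 each). Gbp3, Gbp5 and Gbp7 differed by 1.04, 1.25 and 0.87 (adjusted p = 0.977 each), and Tgtp2 by 1.29 ± 0.74 (SE, adjusted p = 0.977).

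Knockout tumor 51 and 81 also had the highest interferon and lymphocyte signals. The mean of the 9 GTPases was 4.81 and 3.63 on these arrays, -0.33 to 2.97 on the other 6 knockout tumors and -0.49 to 2.08 in wild-type tumor. Ifng, which encodes interferon gamma, was at 1.40 and 0.92 on knockout tumor 51 and 81, at -4.89 to -0.63 on the other knockout tumors and at -4.99 to -2.22 in wild-type tumor. The mean of 9 T cell markers was 0.59 and 0.64 on the first pair, -1.87 to -0.81 on the other knockout tumors and -2.01 to -0.82 in wild-type tumor. Of these markers 8 of 9 were higher in knockout tumor (median 0.91, none called), as were 7 of 8 NK and cytotoxic genes (median 1.05, none called). Neutrophil markers were lower, 7 of 7 with a median of -1.43 (none called), with means of -0.66 to 1.19 in knockout and -0.25 to 3.93 in wild-type tumor. All 10 skeletal muscle markers were higher (median 1.77, none called), with means of -3.91 to 6.14 in knockout and -3.21 to 4.86 in wild-type tumor. Of 10 macrophage markers 9 were higher (median 0.61, none called), with means of 0.11 to 3.32 in knockout and 0.13 to 1.62 in wild-type tumor. All 11 cell cycle genes were higher (median 0.35, none called), with means of 3.54 to 3.94 in knockout and 2.72 to 3.85 in wild-type tumor. An unadjusted p under 0.05 was reached by 5 of 7 neutrophil, 4 of 9 T cell, 1 of 8 NK and cytotoxic and 5 of 11 cell cycle genes. It was reached by 0 of 10 skeletal muscle and 0 of 10 macrophage markers, and by 3.33% of all genes. The part of these markers in the GTPase difference of the tumor was not tested. Without knockout tumor 51 and 81, the median of the 9 genes was 0.59, with 9 of 9 higher and none called.

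Of the 3 slides that held both genotypes of tumor, 1 showed the difference. The median of the 9 genes was 2.70 on slide 2, which set knockout tumor 81 against wild-type tumor 45. It was -0.28 on slide 3 and -0.18 on slide 4, where knockout tumor 95 and 12 were the only knockout arrays. With slide as a fixed block, the median was 0.41, and none was called.

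Whether the genotype difference itself differed between stroma and tumor was tested with an interaction over all 32 arrays. None of the 9 passed, and the percentage of all genes called was 0. At an unadjusted p under 0.05 there were 0 of the 9 and 21.1% of all genes. The interaction (difference in stroma minus difference in tumor) ran from -0.73 ± 0.90 for Gbp2 to 0.41 ± 0.73 for Irgm2 (SE, adjusted p = 0.646 and 0.766). Its median was -0.11, and with slide as a fixed block it turned to 1.01.

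**Figure D3:**
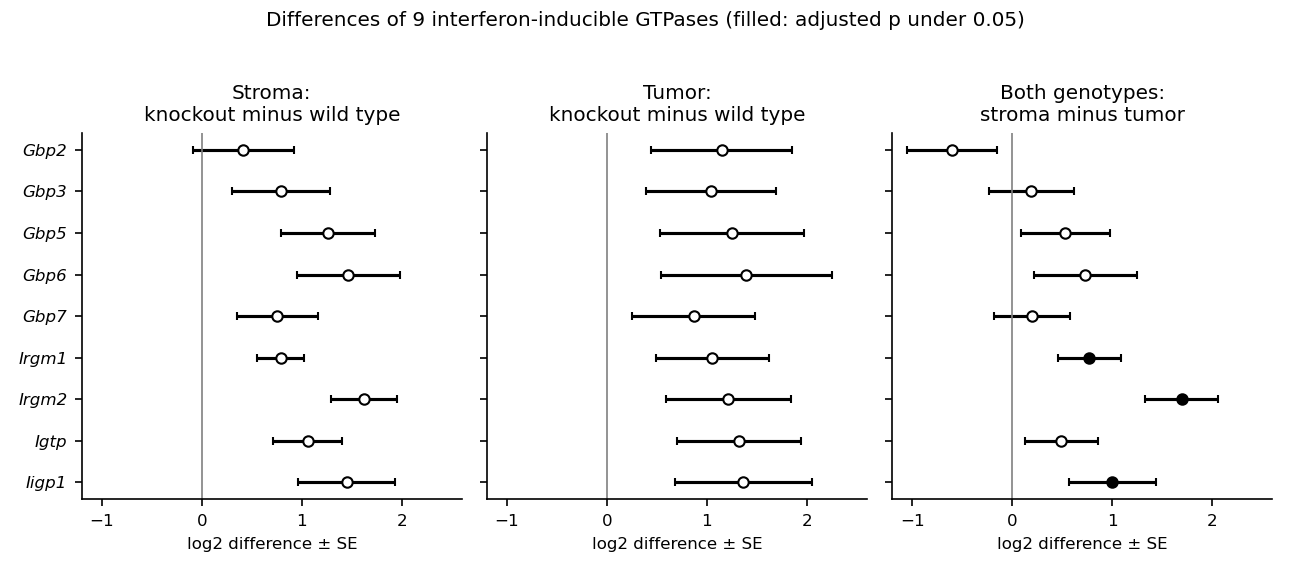
Log2 difference ± SE of 9 GTPases for knockout minus wild-type stroma, knockout minus wild-type tumor, and stroma minus tumor over both genotypes (filled points: adjusted p under 0.05). No point is filled in the genotype comparisons, and Irgm1, Irgm2 and Iigp1 are filled in the tissue comparison.

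The tissues were then compared over both genotypes, with the same 32 arrays. Irgm2, Irgm1 and Iigp1 were higher in stroma than in tumor and passed the test. These are 3 of the 9 genes, while 25.7% of the 27120 genes tested were called higher and 62.8% were called in either direction, so the share is near the background. The median of the 9 differences was 0.53, against -0.14 over all genes, and 8 of the 9 were higher, against 43.6% of all genes.

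Irgm2 ran from 1.73 to 5.64 over the 16 stroma arrays and from 0.32 to 5.65 over the 16 tumor arrays. In stroma 15 of 16 arrays were above the tumor median, and the exception was wild-type stroma 65. The log2 difference was 1.70 ± 0.37 (SE, 3.24-fold, adjusted p = 0.0002). It was positive on all 6 slides, from 0.30 on slide 1 to 3.07 on slide 4. Leaving out any array or changing the scaling kept this call.

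Irgm1 was higher by 0.77 ± 0.31 (SE, adjusted p = 0.0353), with 14 of 16 stroma arrays above the tumor median. Iigp1 was higher by 1.0 ± 0.43 (SE, adjusted p = 0.0469), with 12 of 16. Both calls were close to the threshold. The Irgm1 call was lost when any of 10 arrays was left out (adjusted p of 0.0503 to 0.0682). These were knockout stroma 51 and 15, wild-type stroma 68 and 4, knockout tumor 12, 59B, 15 and 95, and wild-type tumor 5 and 65. The Iigp1 call was lost without any of the same 10 or of 9 more (0.0507 to 0.0884): knockout stroma 49 and 81, wild-type stroma 5, 45, 65 and 82, knockout tumor 99, and wild-type tumor 45 and 4. With slide as a fixed block Irgm1 was not called (0.70, adjusted p = 0.0609) and Iigp1 was (0.98, adjusted p = 0.0407). Neither gene was called with no filter on dim probes (adjusted p = 0.0557 for Irgm1 and 0.0718 for Iigp1) or without the arrays against their sex label (0.131 and 0.0607). Without those arrays and with the sex label left out of the fit, Irgm1 was not called (adjusted p = 0.0607). Iigp1 was not called with all arrays and the sex label left out (0.0515), or without wild-type stroma 65 and 82 (0.97, adjusted p = 0.0768). Without knockout tumor 51, Gbp6 (1.05, adjusted p = 0.0398) and Igtp (0.75, adjusted p = 0.0265) also passed.

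Gbp2 was the only one of the 9 genes with a lower mean in stroma. It averaged 2.52 ± 1.03 in stroma, against 3.12 ± 1.52 in tumor (16 arrays each, SD), and the difference was -0.60 ± 0.45 (SE, adjusted p = 0.250). Gbp3, Gbp7, Igtp, Gbp5 and Gbp6 differed by 0.19, 0.20, 0.49, 0.53 and 0.73, and none passed the test.

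Split by genotype, Irgm2 was the only one of the 9 that passed in each. In knockout hosts it was higher in stroma by 1.90 ± 0.52 (SE, adjusted p = 0.0026, 8 of 8 arrays above the tumor median), where 59.4% of all genes were called and 26.3% called higher. Without knockout tumor 51, Irgm1 (1.07, adjusted p = 0.0127) and Iigp1 (1.55, adjusted p = 0.0165) passed as well. In wild-type hosts it was higher by 1.49 ± 0.52 (SE, adjusted p = 0.0316, 7 of 8 arrays), where 30.2% of all genes were called and 11.9% called higher. That call was lost with slide as a fixed block and when wild-type stroma 68, 4 or 9 or wild-type tumor 5, 45 or 65 was left out (adjusted p of 0.0507 to 0.0760). Both splits use arrays of the comparison over both genotypes.

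Markers of several cell types were called in the same comparison. All 10 skeletal muscle markers were called higher in stroma (median 6.40), as were 7 of 8 adipocyte and 8 of 8 endothelial markers (medians 4.34 and 1.40). The share of all genes called higher was 25.7%. Of 10 macrophage markers, 8 were called higher (median 1.57), while 11 of 11 cell cycle genes were called lower (median -2.64), as were 37.1% of all genes. Among 9 T cell markers 1 was called higher and 1 lower. The part of these markers in the GTPase differences was not tested.

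The balance of IRGs to GBPs was higher on average in stroma than in tumor. The mean of the 4 IRG probes minus the mean of the 5 GBP probes on the same array was 2.94 ± 0.36 in knockout stroma, against 2.65 ± 0.66 in stroma of wild-type hosts. In tumors it was 2.06 ± 0.34 for knockout hosts, against 1.96 ± 0.20 for wild-type hosts (8 arrays each, SD). Its size depends on the probes, and only its change between arrays can be read. The highest values were on wild-type stroma 9 and 1 and knockout stroma 59B (3.69, 3.62 and 3.66), and the tumor arrays ran from 1.56 to 2.56. No test was made of this difference over the 9 genes.

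**Figure D4:**
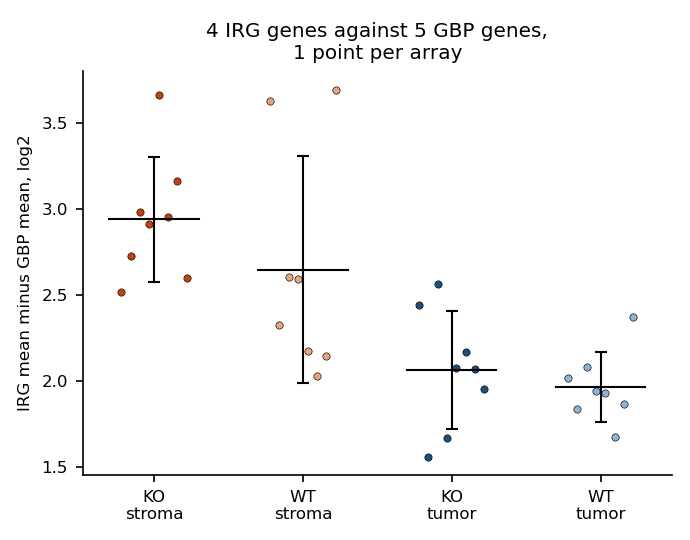
Mean log2 level of 4 IRG genes minus that of 5 GBP genes on each array, by group (line and bar: mean ± SD, 8 points each). Stroma arrays run from 2.03 to 3.69 and tumor arrays from 1.56 to 2.56.

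Among themselves the 9 genes varied together from array to array, more tightly in tumor. Over the 16 tumor arrays the 36 pairs of genes had Pearson correlations of 0.763 to 0.989 (median 0.945). Over the 16 stroma arrays they ran from 0.309 to 0.980 (median 0.844), and the lowest was that of Gbp2 with Irgm2. These values describe arrays that share a scaling and a tissue.

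The genes most like the mean of the 9 were sought by the lower of the stroma and tumor correlations, over 16 arrays each. Gbp9 (0.951 in stroma and 0.967 in tumor) and Gbp4 (0.945 and 0.949), both GBPs, came first of 13787 genes. Parp14, an ADP-ribosyltransferase (0.945 and 0.962), Il18bp, the soluble inhibitor of interleukin 18 (0.943 and 0.961), and Ifi47, an IRG (0.942 and 0.980), followed. Tgtp2 was at rank 6 (0.941 and 0.986). Irf1 was at rank 174 and Ifng at rank 250.

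Ifng followed the GTPases closely in tumor (correlation 0.952) and less so in stroma (0.703), over 16 arrays each. Its probe was dim, and was well above background on 6, 6, 7 and 6 of 8 arrays in knockout stroma, wild-type stroma, knockout tumor and wild-type tumor. In stroma its mean was -3.21 ± 1.39 for knockout hosts, against -3.49 ± 2.14 for wild-type hosts (8 arrays each, SD). The stroma difference of 0.28 ± 0.88 (SE) had an adjusted p of 0.840. In tumor its mean was -1.28 ± 1.96 for knockout hosts, against -3.22 ± 1.02 for wild-type hosts (8 arrays each, SD). The tumor difference of 1.94 ± 0.75 (SE) had an adjusted p of 0.977, with 7 of 8 knockout arrays above the wild-type median. Knockout stroma 49, 95 and 59B had low Ifng, at -4.06, -5.10 and -4.67, and on 95 and 59B it was not well above background. Their GTPase means were 3.21, 1.999 and 1.95, where knockout stroma ran from 1.95 to 3.39. Arrays 95 and 59B thus had the lowest means of that group, and only array 49 had a high one.

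**Figure D5:**
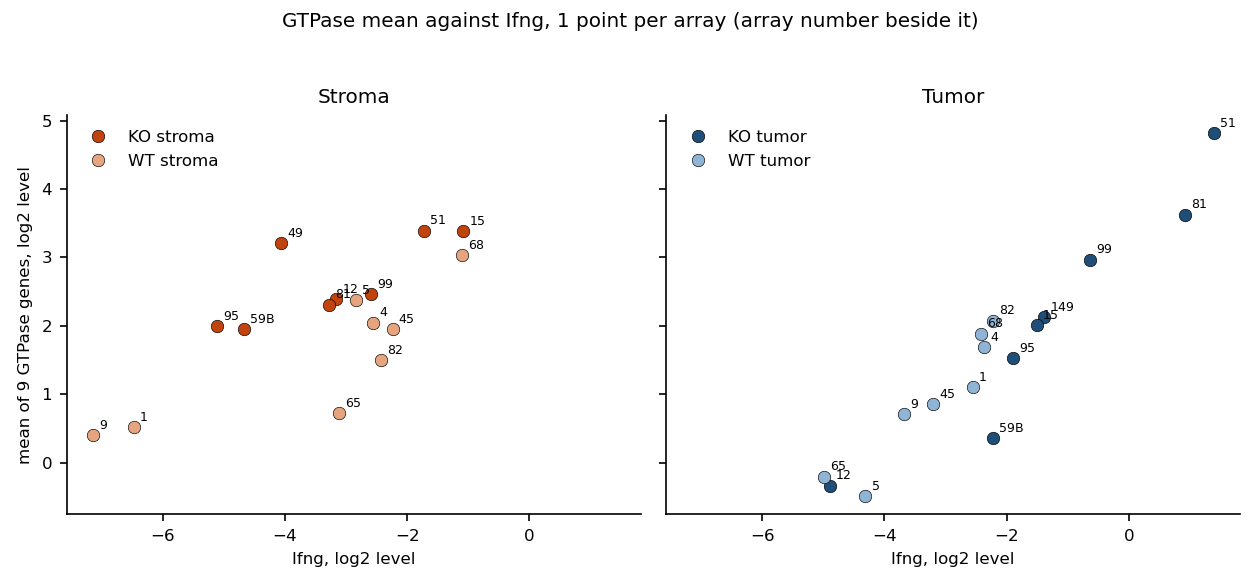
Mean log2 level of the 9 GTPases against the log2 level of Ifng on each array (number beside the point), for stroma and tumor. Knockout tumor 51 and 81 are at the upper end of both axes, and wild-type stroma 1 and 9 are at the lower end.

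The other GBP and IRG genes measured stood in the same direction as the 9. In stroma 8 of 8 were higher in the knockout (median 1.14, none called), led by Gbp10 (0.75 ± 0.24) and Gbp9 (1.22 ± 0.40 SE, adjusted p = 0.120 each). In tumor 8 of 8 were higher (median 1.23, none called), led by Gbp8 (1.47 ± 0.75) and Gbp4 (1.43 ± 0.79 SE, adjusted p = 0.977 each). Between tissues 1 of 8 was called higher in stroma, beside 25.7% of all genes. It was Gvin1, a very large interferon-inducible GTPase (1.96 ± 0.37 SE).

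Upstream of the family, the ligands and receptors showed no called difference with genotype. In stroma 8 of 9 were higher in the knockout (median 0.28), led by Il12a, a subunit of interleukin 12 (adjusted p = 0.123), and Ifngr1, the ligand-binding chain of the interferon gamma receptor (0.72 ± 0.34 SE, adjusted p = 0.177). In tumor 6 of 8 were higher (median 0.13), led by Ifng. Between tissues 4 of 11 were called higher in stroma (Ifngr1 by 1.64, Ifngr2 by 0.81, Il18 by 1.43, and Il12a), beside 25.7% of all genes. Ifnar2, a type I receptor chain, was the 1 called lower (-0.82), beside 37.1% of all genes. The Il12a probe was well above background on 8 of 8 knockout and 4 of 8 wild-type stroma arrays, and on 0 of 8 knockout and 2 of 8 wild-type tumor arrays, so its differences are not given.

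Signal transducers likewise passed no test between genotypes. In stroma 13 of 14 were higher in the knockout (median 0.46), led by Jak1 (0.45 ± 0.19 SE, adjusted p = 0.155) and Irf7, a regulator of type I interferon genes (1.38 ± 0.61 SE, adjusted p = 0.161). In tumor 13 of 14 were higher (median 0.45), led by Socs1, a feedback inhibitor (0.55 ± 0.23), and Irf8 (1.06 ± 0.45 SE, adjusted p = 0.977 each). Between tissues Jak2 (0.78), Irf8 (1.06) and Irf7 (1.37) were called higher in stroma, and Socs1 (-1.29) and Irf1 (-0.69) lower. These were 3 of 14 higher and 2 of 14 lower, beside 25.7% and 37.1% of all genes.

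Interferon gamma targets outside the family had smaller medians than the GTPases. In stroma 14 of 16 were higher in the knockout (median 0.49, none called), led by Ido1 (1.12 ± 0.34 SE, adjusted p = 0.120) and Ciita, the regulator of MHC class II genes (1.35 ± 0.65 SE, adjusted p = 0.183). In tumor 15 of 16 were higher (median 0.69, none called), led by Psmb8 (0.88 ± 0.42) and Cxcl10 (1.51 ± 0.76 SE, adjusted p = 0.977 each). Between tissues Ciita was called higher in stroma (1.55) and Nos2 lower (-1.64), with a median of -0.25 over the 16. That is 1 of 16 in each direction, beside 25.7% of all genes called higher and 37.1% lower.

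Antiviral genes of the type I interferon response were higher in 16 of 16 cases in both genotype comparisons. The median was 0.92 in stroma, led by Oas2 (1.79 ± 0.49 SE, adjusted p = 0.120) and Oasl2 (1.28 ± 0.51 SE, adjusted p = 0.140). It was 0.72 in tumor, led by Ifit2 (0.67 ± 0.26) and Ifih1 (0.81 ± 0.34 SE, adjusted p = 0.977 each). None was called with genotype, and 5 of 16 were called higher in stroma than in tumor, beside 25.7% of all genes, led by Oas2 (2.0 ± 0.42 SE).

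Partners of the GTPases were measured as well. Of 15 genes listed for autophagy conjugation and vacuole targeting, 12 were higher in knockout stroma (median 0.30) and 9 in knockout tumor (median 0.06). Some genes of that list help to place IRGs and GBPs on membranes. Of 8 inflammasome and pyroptosis genes, 6 were higher in knockout stroma (median 0.54) and 5 in knockout tumor (median 0.26). None of either list was called with genotype.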

How the data were processed

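Total RNA of tumor and tumor stroma was measured with Cy3 on one-colour arrays, per the labels' protocols. Per the submitters' processing notes, the images were read by Agilent Feature Extraction 10.7.3.1. Each deposited scanner file gives a processed intensity per spot, which is linear, per the file headers. The deposited series matrix holds log2 values; over 56605 probes they equalled the values computed here within 0.01 after 1 constant per array and a centring of each probe within its tissue, and their column medians ran from -0.315 to 0.563.

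Here, outlier spots were left out, replicate spots of a probe averaged on the log2 scale, and the array's 75th percentile over non-control probes subtracted. Among the 56605 probes that are no controls, 32994 took a RefSeq name through their accession. Genes entered a test if at least 8 arrays showed them well above background and no more than 2 values were missing. The test was limma 3.58.1 (lmFit, eBayes) in R 4.3.3 with 1 mean per genotype and sex label: 16 arrays of a tissue for the genotype comparisons, 32 for the others. A gene was called at a Benjamini-Hochberg adjusted p under 0.05 over all genes tested. The numbers of arrays given beside a difference are those beyond the median of the other group.

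The alternative with normexp used the median spot signal, the files holding no mean signal column. The test was checked on simulated data. The genes were chosen, and the lists fixed, with earlier results of these data known. All 10 genes are named, with up to 4 genes of a list by smallest p (2 where none passed) and the 5 genes most like the GTPase mean; Tgtp2, Ifnar2, Irf1 and Irgm1 values of single settings were named after their values were seen. Alternatives covered background correction, scaling, filters, probe choice, variance, array weights, slide, sex label, replicate number and leaving out arrays. Arrays lay on 6 slides scanned on 2 days. Replicate numbers do not pair the samples by any label, and samples of the same number correlated in their deviations at -0.12 to 0.36 over 15 pairs. Promoter motifs were searched on both strands in the 300-base windows of the RefSeq table.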

Additional observations from a re-analysis of the deposited data

How the results depend on the processing

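In tumor, none of the 9 genes was called with genotype under any of 37 alternatives, and all 333 single-gene differences stayed positive. In stroma 332 of 333 stayed positive. The exception was Gbp2, at -0.16 without wild-type stroma 1 and 9. The number called in stroma, 0 as reported, was 6 with array weights, 3 without the arrays against their sex label (2 with the sex label also left out), 2 without wild-type stroma 1 and 9, and 1 with all 32 arrays in 1 fit, with or without the replicate number as a random block. It was 0 to 6 when 1 array was left out. Over all genes, 0 were called as reported, against 16665 (67.2%), 5508 (22.9%), 3926 (16.3%), 8681 (36.1%), 4336 (16%) and 4477 (16.5%) in these fits. They were 5116 (21%) and 8325 (33.9%) after leaving out array 4 or 9 of the wild-type stroma, and 8 (0.0328%) after leaving out array 12 of the knockout stroma. The 6 of 9 called with array weights are thus near the share of all genes in that fit.

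Between tissues over both genotypes, 3 of the 9 genes were called as reported. The count became 1 with no filter on dim probes, without the arrays against their sex label or without wild-type tumor 5. Of all genes 37.8%, 56.8% and 63% were called in these fits. It was 5 without knockout tumor 51 and 81, near the share of all genes called there, 62.5%. With 1 array left out it was 1 to 5. It was 2 with slide as a fixed block and without wild-type stroma 65 and 82 (61.7% and 65.1% of all genes). It was also 2 with the sex label left out, for all arrays or without those against it (63.5% and 59.1%). In knockout hosts the 1 called gene became 3 with array weights, 2 with slide as a fixed block and 5 without knockout tumor 51 and 81 (1 to 3 with 1 array left out). Of all genes 74.9%, 52.6% and 57.7% were called in these 3 fits. In wild-type hosts the 1 became 0 with no filter, array weights or slide as a fixed block (14%, 35.8% and 33.3% of all genes called). It also became 0 without the arrays against their sex label, with the sex label kept or left out (20.5% and 22.7%). The same held without wild-type tumor 5 (28.8%) and without wild-type stroma 1 and 9 (17%). In these hosts it became 2 without knockout tumor 51 and 81 (28.8% of all genes), and 0 to 1 with 1 array left out. There Gbp2, -0.23 as reported, turned to 0.0023 without the arrays against their sex label, 0.0142 with the sex label also left out, 0.34 without wild-type stroma 1 and 9, and with 1 array left out it ran from -0.50 to 0.10, above 0 without wild-type stroma 9 or 1. The median of the 9 genes there was -0.19 with slide as a fixed block. The interaction with slide as a fixed block was 1.01 in the median and 0.49 for Gbp2; over all genes 0 were called as reported, against 13817 with array weights, 2130 without the arrays against their sex label (2314 with the sex label left out) and 6361 without wild-type stroma 1 and 9. Tissue counts over all genes, 17037 as reported, fell to 10980 where probes had to be well above background on all arrays, since 16860 genes were then tested; those in knockout hosts were 10443 instead of 16096, and those in wild-type hosts 5312 instead of 8192. In wild-type hosts the count was also 12890 without wild-type stroma 65 and 82, 5427 without the arrays against their sex label and 4555 without wild-type stroma 1 and 9.

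Scaling to probes bright on all arrays moved the all-gene median between tissues to -0.02, from -0.14 as reported. With the replicate number as a fixed block, Irgm2, Irgm1 and Iigp1 differed between tissues by 1.67, 0.78 and 0.99, and 3 of the 9 genes were called. The alternatives without wild-type stroma 1 and 9, with the sex label also left out, and with the percentile over spots were chosen after seeing the data. The cause of these changes was not tested. Between 49.99% and 76.3% of spots were well above background, which limits dim genes such as Ifng and not the 9 GTPases.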
